A study of Mus musculus with 28 samples.

Results

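Open chromatin of fibroblast-derived cells that carried the GFP label on day 10 of conversion to muscle progenitors was set against that of the fibroblasts they started from. The comparison used 4 of the series' 28 ATAC-seq libraries, 2 labelled Dox+FRG day 10 GFP and 2 labelled day 0, and the calls at the differing regions were then read in the other 24 libraries. ATAC-seq marks open chromatin by letting a transposase cut it. Each deposited list gives the mm9 positions of the peaks called in 1 library, and nothing on peak strength.

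All cells of the MEF14 groups were fibroblasts of E13.5 mouse embryos. They carried Pax7-nGFP, Col1a1-tetO-MyoD and, as the activator, Rosa-rtTA. Doxycycline thus turns on a MyoD transgene placed at Col1a1 wherever rtTA is made from Rosa26, and nuclear GFP reports Pax7. Day 10 GFP cells had Dox+FRG, which is doxycycline at 2 µg/ml with forskolin at 5 µM, RepSox at 5 µM and the GSK3β inhibitor CHIR99021 at 3 µM in a medium with serum replacement and basic FGF. Reading FRG as the initials of these molecules is an inference from the protocol. Day 0 cells carried the same alleles and had neither doxycycline nor the molecules. The other groups, also with 2 libraries each, were unsorted Dox+FRG cells at days 2, 4, 6 and 8, GFP cells at day 8, cells of days 4 and 8 given only doxycycline (Dox), cells of day 8 given only the molecules (FRG), day 6 MEF10 cells of the labels MyoD+FRG and MN+FRG, and activated and quiescent satellite cells, which came from adult Pax7-nGFP mice. MEF10 cells were also listed as from E13.5 embryos, with the molecules at the same doses and no doxycycline listed. The labels do not explain MEF10 or MN, or state how cells labelled GFP were collected, and "unsorted" here means only that a label has no GFP. The labels also do not say how many embryos, mice or cultures lay behind the libraries, so the spread between libraries of a group may be technical.

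MyoD is a transcription factor that binds chromatin of non-muscle cells and turns on the muscle programme. Forskolin raises cyclic AMP, RepSox blocks the TGF-β type I receptor and CHIR99021 activates Wnt signalling. Satellite cells are the stem cells of skeletal muscle. They express Pax7, rest in a quiescent state and, on injury, become activated, express MyoD and divide.

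Overlapping peaks (1 bp or more) from the 28 lists were joined into 253225 regions, and 105417 of them had a peak in at least 1 of the 4 libraries compared. Gained regions, called in both day 10 GFP libraries and neither day 0 library, numbered 18987, or 18.0% of these. Lost regions, called in both day 0 libraries and neither day 10 GFP library, numbered 22932, or 21.8%. Kept regions, called in all 4 libraries, numbered 30697, or 29.1%. These calls define the members, so the counts describe the lists and carry no test, and 2 libraries against 2 could not give an exact p below 0.333. Day 10 GFP cells thus no longer called 40.2% of the 57069 regions that both day 0 libraries had, and 35.2% of their own 53955 shared regions were absent from both day 0 lists. The excess of loss over gain did not hold at equal list length: with the 4 lists drawn to 61575 peaks, 18836 regions were gained and 18341 lost.

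Regions just outside the rule were fewer than the members. A single day 10 GFP library and no day 0 library called 9750 regions, and a single day 0 library and no day 10 GFP library called 13793. Both day 10 GFP libraries and 1 day 0 library called 4271 regions, and both day 0 libraries and 1 day 10 GFP library called 3440. The Jaccard index, the shared regions over the regions called in either library, was 0.785 between the day 10 GFP libraries and 0.744 between the day 0 libraries. Across the groups it lay between 0.372 and 0.378.

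List length sets how much a library can call, and must be read beside every share. There were 61575 and 64947 peaks in the day 10 GFP lists, against 70756 and 67502 in those of day 0. Among the others, the day 8 GFP lists were short (47002 and 43467 peaks), while the Dox lists (89871 to 130916) and FRG lists (134997 and 133267) were long. MEF10 MyoD+FRG replicate 2 stood apart, with peaks of up to 202465 bp, and its group had an index of 0.380 between its libraries. Kept regions are given below as a gauge of each library's yield, and "other regions" are the 157558 regions called in neither day 0 library and not gained. Every list adds its own peaks to this set, so its share in a library grows with that list and is no chance level. A region that is called less can reflect fewer cells with it open or less opening per cell, which cannot be told apart in bulk libraries. No mm9 annotation was used here, so no gene is named from a position and the cell labels were not checked against marker genes.

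Gained regions filled in stepwise over the conversion. The day 2 libraries called 28.9% and 18.3% of them, the day 4 libraries 53.6% and 39.2%, the day 6 libraries 57.1% and 58.0%, and the unsorted day 8 libraries 68.6% and 55.2%. Day 2 lay below every later library, and the later days overlapped. Over these 8 libraries the share rose with day (Pearson r = 0.89, two-sided exact permutation p = 0.00397, adjusted p = 0.0119 over 6 tests; Spearman rho = 0.88, exact permutation p = 0.0103). None of these libraries chose the regions, but the rule set both ends of the course, at day 0 and day 10. A rise between the ends is thus favoured by the choice, and the p-value is no independent support for it. The relation rests in part on day 2, since without its libraries r was 0.73 (exact permutation p = 0.111). Other regions were called at 4.26% and 1.87% on day 2 and at 8.63% and 4.15% in unsorted cells on day 8.

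Lost regions emptied in the opposite order. The day 2 libraries still called 46.9% and 32.9% of them, the day 4 libraries 37.9% and 22.1%, the day 6 libraries 18.5% and 19.4%, and the unsorted day 8 libraries 13.2% and 6.82%. Both day 8 libraries lay below all earlier ones. The share fell with day (Pearson r = -0.90, two-sided exact permutation p = 0.00317, adjusted p = 0.0119 over 6 tests; Spearman rho = -0.93, exact permutation p = 0.00317). This fall is favoured by the rule in the same way. Without the day 8 libraries r was -0.81 (exact permutation p = 0.0889). Kept regions stayed between 83.4% and 94.0% in the same 8 libraries.

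**Figure D1:**
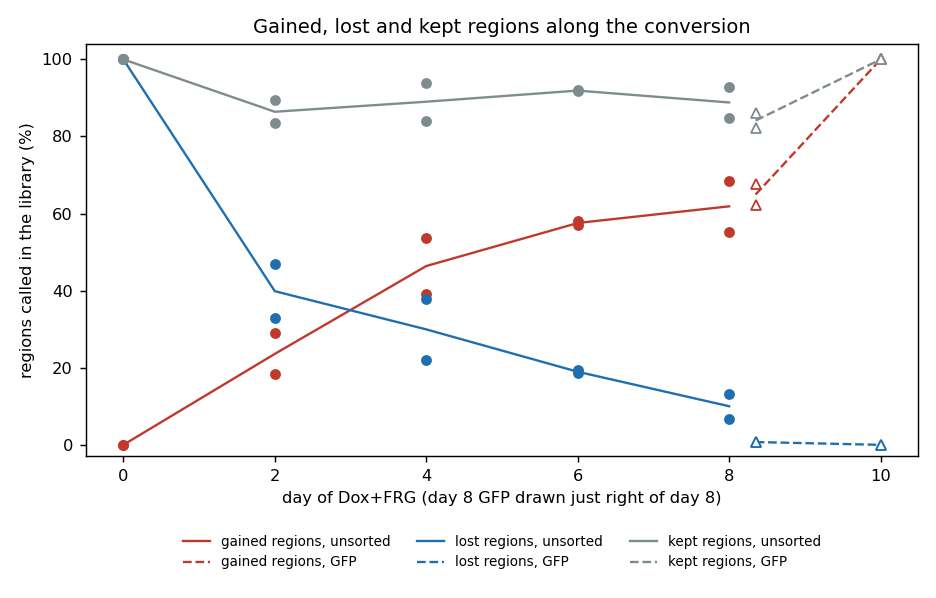
Share of gained (red), lost (blue) and kept (grey) regions called in each Dox+FRG library, in percent, against the day of treatment. Points are libraries and lines join group means (n = 2 each), with circles for day 0 and unsorted cells and triangles for GFP cells, those of day 8 drawn just right of their day. At days 0 and 10 the values of 0% and 100% follow from the rule, and in between lost regions fell to 13.2% and 6.82% at day 8.

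Loss came early and gain was spread out. Day 2 was the first day without a call in either library for 49.9% of lost regions, day 4 for 18.2%, day 6 for 14.4% and day 8 for 8.71%. Of all regions of both day 0 libraries 26.0% were called in neither library at day 2, and of kept regions 7.94%. The day 2 lists were short, with 59721 and 46017 peaks. Once a lost region was called in neither library by day 6, it stayed so at every later unsorted day for 84.4% of 18925 regions. Day 2 was the first day with a call in both libraries for 15.7% of gained regions, day 4 for 24.0%, day 6 for 14.3% and day 8 for 7.45%. Among other regions these shares were 1.29%, 2.63%, 2.65% and 0.601%. Of the 10245 gained regions called in both libraries by day 6, 77.1% were called in both at each later unsorted day. Neither share of regions that stayed, 84.4% or 77.1%, was computed over kept or other regions.

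A further 38.6% of gained regions were at no unsorted day called in both libraries, and 3826 (20.2%) were called in no unsorted library at all. Of these 3826, both day 8 GFP libraries called 29.5%, 1 of them 24.6%, and neither 45.8%.

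The GFP label at day 8 went with near-complete absence of the lost regions. Day 8 GFP libraries called 0.807% and 0.650% of lost regions, against 13.2% and 6.82% in unsorted day 8 libraries. Both GFP values lay below both unsorted ones. List length differed little between day 8 GFP replicate 1 (47002 peaks, 86.2% of kept regions) and unsorted day 8 replicate 2 (50608 peaks, 84.9% of kept regions), and these called 0.807% and 6.82% of lost regions. They called 67.7% and 55.2% of gained regions. Both day 8 GFP libraries lacked 22639 of the 22932 lost regions, or 98.7%, and both called only 41. Gained regions were called at 67.7% and 62.2% in day 8 GFP cells, within or close to the unsorted range of 68.6% and 55.2%. Day 8 GFP cells thus had nearly all of the loss seen at day 10, while 25.9% of gained regions were called in neither of their libraries.

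Doxycycline alone and the molecules alone were read at day 8 to see at which of these regions each treatment gave a peak by itself. Dox libraries called 62.5% and 70.3% of gained regions, and FRG libraries 33.1% and 33.1%. Of other regions, Dox libraries called 23.8% and 33.0%, and FRG libraries 38.3% and 37.7%, more than their share of gained regions. Both Dox libraries and neither FRG library called 6996 gained regions (36.8%). Both FRG libraries and neither Dox library called 1166 (6.14%). Both groups called 3593 (18.9%), and neither group called 3707 (19.5%), with the rest split within a group. Among other regions these shares were, in the same order, 14.5% Dox alone, 22.0% FRG alone, 4.36% both and 26.3% neither.

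The 3707 gained regions that neither treatment alone gave at day 8 were called less often in Dox+FRG cells than all gained regions. They were picked for having no call in the long Dox and FRG lists, and what this choice does to their shares was not tested. Without the GFP label, both Dox+FRG libraries of day 2 had 1.05% of them, both day 4 libraries 1.75%, both day 6 libraries 7.77% and both day 8 libraries 17.1%. Both day 8 GFP libraries called 46.7%. Over all gained regions these shares were 15.7%, 36.6%, 49.8% and 52.0% in unsorted cells, and 55.8% in day 8 GFP cells. In satellite cells 62.9% of the 3707 were called by no library, 14.3% by both quiescent libraries and neither activated one, 3.53% by all 4 libraries, and 1.54% by both activated libraries and neither quiescent one. Over all gained regions these satellite cell shares were, in the same order, 37.9%, 9.34%, 13.0% and 13.3%.

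Many lost regions were still called under either treatment alone, most of them in FRG cells. FRG day 8 libraries called 77.1% and 76.1% of them, Dox day 8 libraries 56.0% and 69.2%, and Dox day 4 libraries 36.0% and 39.2%. The Dox libraries of day 8 were higher than both of day 4, and their lists were longer (108663 and 130916 peaks, against 89871 and 97854). Of the 12666 lost regions that neither Dox library called at day 4, both Dox libraries called 26.4% at day 8, and of the 6991 that both called at day 4, 0.830% were called in neither at day 8. Both groups called 9882 lost regions (43.1%) at day 8, a smaller share than the 71.9% of all day 0 regions and the 93.1% of kept regions that they called. With doxycycline and the molecules together, 25.2% of these 9882 had no call in either unsorted day 2 library, 32.8% in either day 4 library, 57.1% in either day 6 library and 75.6% in either day 8 library. Neither day 8 GFP library called 98.2%.

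Dox+FRG libraries called fewer lost regions than Dox libraries at day 8, but the tests over days 4 and 8 together did not pass the threshold, and the size of the difference depended on list length. Lost regions were called at 20.0% ± 13.4 in Dox+FRG and 50.1% ± 15.4 in Dox libraries (SD, n = 4 each), a difference of -30.1 points (p = 0.0571 from all 70 exact permutation splits, two-sided, and 0.114 adjusted). With all lists drawn to 46017 peaks it was -6.55 points, at 14.9% ± 8.64 in Dox+FRG and 21.4% ± 3.36 in Dox libraries (SD, n = 4 each; exact permutation p = 0.314). With the lists as deposited, the day 8 values alone were 10.0% ± 4.51 in Dox+FRG and 62.6% ± 9.30 in Dox cells, and the day 4 values 30.0% ± 11.2 in Dox+FRG and 37.6% ± 2.28 in Dox cells (SD, n = 2 each). With the drawn lists the day 8 values were 7.69% ± 2.15 in Dox+FRG and 24.3% ± 0.614 in Dox cells, and the day 4 values turned to 22.1% ± 3.42 in Dox+FRG and 18.6% ± 0.0740 in Dox cells (SD, n = 2 each). Gained regions were called at 54.1% ± 12.0 in Dox+FRG and 64.0% ± 4.57 in Dox libraries (SD, n = 4 each; exact permutation p = 0.200, adjusted p = 0.240), and with lists drawn to equal length Dox+FRG was 13.9 points higher (exact permutation p = 0.0286, the smallest that 70 splits can give). The same draw also left fewer kept regions called in Dox cells, 49.0% at day 4 and 40.7% at day 8. In Dox+FRG cells these were 69.1% and 71.0% (means, n = 2 each). The part of this in the drawn values of gained and lost regions was not tested. The log2 ratio of gained to lost shares, taken within a library, averaged 1.68 ± 1.21 in Dox+FRG and 0.40 ± 0.36 in Dox libraries (SD, n = 4 each; exact permutation p = 0.114, adjusted p = 0.171). At day 8 it was 2.70 ± 0.45 in Dox+FRG and 0.09 ± 0.10 in Dox cells, and at day 4 0.67 ± 0.23 and 0.71 ± 0.02 (SD, n = 2 each). Within a day, 2 libraries against 2 could not reach a p below 0.333.

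MEF10 cells split by label. MEF10 MN+FRG libraries called 34.3% and 34.3% of gained and 66.8% and 66.8% of lost regions, beside 33.1% and 33.1% of gained and 77.1% and 76.1% of lost regions in FRG day 8 libraries. MEF10 MyoD+FRG libraries called 23.6% and 60.2% of gained and 16.4% and 51.0% of lost regions. Replicate 2, with the wide peaks and a list of 91401 peaks against 37301 in replicate 1, had the higher value each time, and no group level is drawn from them.

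**Figure D2:**
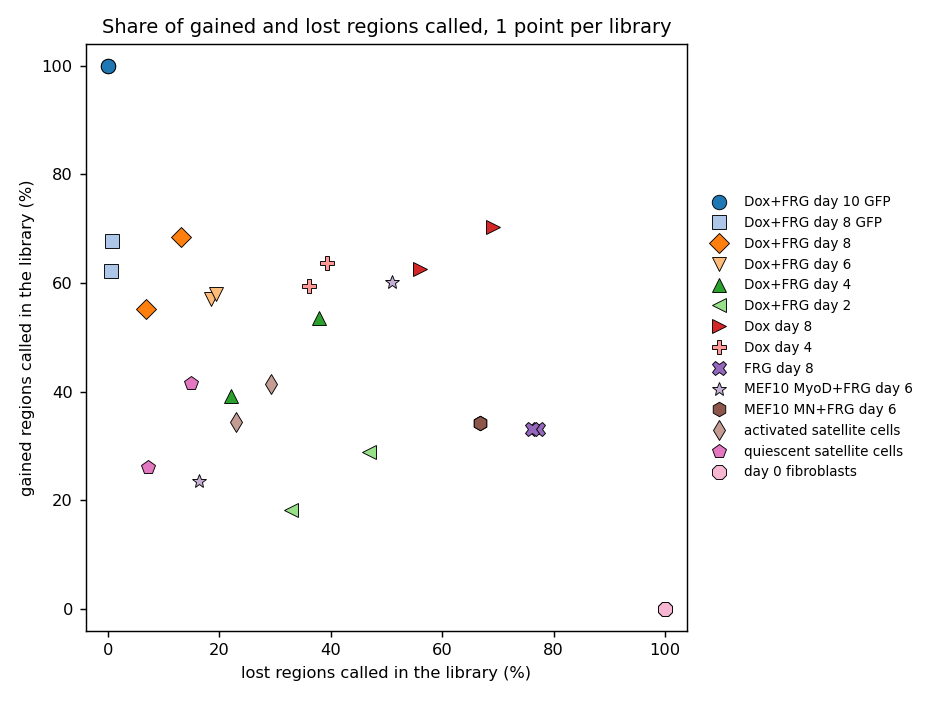
Share of lost regions (horizontal, percent) against share of gained regions (vertical, percent) called in each of the 28 libraries, with 1 symbol per group. Day 8 GFP cells sit at the left edge (0.807% and 0.650% of lost regions), Dox and Dox+FRG day 8 cells at similar heights but far apart across, and FRG cells at 77.1% and 76.1%. The day 10 GFP and day 0 positions are fixed by the rule.

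Satellite cells, which took no part in choosing the regions, were used to ask which gained and lost regions muscle stem cells share. Activated satellite cell libraries called 34.5% and 41.4% of gained regions and quiescent ones 41.5% and 26.1%, so the states overlapped. Of lost regions, activated libraries called 23.0% and 29.2% and quiescent ones 14.9% and 7.29%. Both activated values were the higher ones there, also for the longer quiescent list (57859 peaks, against 49072 in activated replicate 1). Of all 253225 regions, activated libraries called 18.7% and 23.4% and quiescent ones 22.2% and 14.5%. Quiescent lists thus called fewer lost regions than regions at large, and activated lists somewhat more. Of kept regions, activated libraries called 76.8% and 81.6% and quiescent ones 85.3% and 70.7%.

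What happened to a day 0 region differed with its satellite cell calls. Day 10 GFP cells lost 84.9% of the 16652 day 0 regions that no satellite cell library called. They lost 3.63% of the 19407 that all satellite cell libraries called. Between these, they lost 55.2% of the 6159 day 0 regions called in both activated and no quiescent libraries, and 23.9% of the 2657 called in both quiescent and no activated libraries. The loss over all 57069 day 0 regions was 40.2%. Fibroblast regions shared with activated cells alone were thus lost more often than those shared with quiescent cells alone, and this order held in all 7 alternatives run, at 50.6% to 57.7% and 15.7% to 40.8%. The class called in all satellite cell libraries reached 11.7% lost with extended peaks alone, those wider than a list's usual width. These are shares over regions in 1 set of lists, with no test. Kept regions were wider than lost ones (median 1298 bp against 500 bp). The part of width, or of being called in most libraries, in these shares was not tested.

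The 3399 lost regions of the activated-only class went late, and were called in most cases where either treatment was given alone. Unsorted Dox+FRG cells called 60.3% ± 9.80 of them on day 2, 60.2% ± 13.3 on day 4, 41.9% ± 0.395 on day 6 and 24.5% ± 8.47 by day 8 (SD over the 2 libraries). Day 8 GFP cells called 0.721% ± 0.312. Dox day 8 cells called 92.1% ± 3.99 and FRG day 8 cells 79.9% ± 1.39. Lost regions with no satellite cell call left sooner, with 30.4% ± 9.70 called on day 2 and 4.97% ± 2.72 on day 8 (SD, n = 2).

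Gains were read the same way over the 176545 regions that no day 0 library called, of which day 10 GFP cells gained 10.8%. They gained 79.2% of the 3119 such regions called in all satellite cell libraries. They gained 34.6% of the 7314 activated-only and 31.5% of the 5637 quiescent-only regions, and 5.19% of the 138577 with no satellite cell call. These shares depend on which regions are counted as absent at day 0: with regions merged from the 4 libraries alone they were 78.9% activated-only, 74.3% quiescent-only and 49.9% with no satellite cell call, and with extended peaks alone 21.1%, 17.5% and 0.932% in the same order. That last class was the largest source of gained regions all the same, with 7187 members, against 2533 activated-only, 1773 quiescent-only and 2471 called in all satellite cell libraries.

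Gained activated-only and quiescent-only regions followed different courses. Activated-only ones were called at 36.4% ± 10.1 on day 2, 83.0% ± 7.12 on day 4, 87.2% ± 0.447 on day 6 and 86.6% ± 6.11 on day 8 in unsorted cells, and 26.1% were in both libraries by day 2 with a further 52.3% first at day 4. Quiescent-only ones were called at 15.5% ± 6.66 on day 2, 22.9% ± 9.29 on day 4, 35.8% ± 0.518 on day 6 and 45.9% ± 9.01 by day 8 (SD over the 2 libraries), and 56.8% of them were in both libraries at no unsorted day. Day 8 GFP cells called 66.5% ± 4.49 of the activated-only and 64.6% ± 3.55 of the quiescent-only gained regions. Dox cells of day 8 called 94.7% ± 2.37 of the activated-only and 43.3% ± 6.38 of the quiescent-only ones. FRG day 8 cells called 24.1% ± 0.419 of the activated-only and 45.6% ± 0.479 of the quiescent-only ones. The quiescent-only share over the activated-only share, as log2, was 0.89 and 0.95 in the FRG libraries and between -1.53 and -1.01 in the 4 Dox libraries. Between Dox+FRG and Dox libraries of days 4 and 8 it averaged -1.42 ± 0.64 and -1.28 ± 0.21 (SD, n = 4 each; exact permutation p = 0.714, adjusted p = 0.714).

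**Figure D3:**
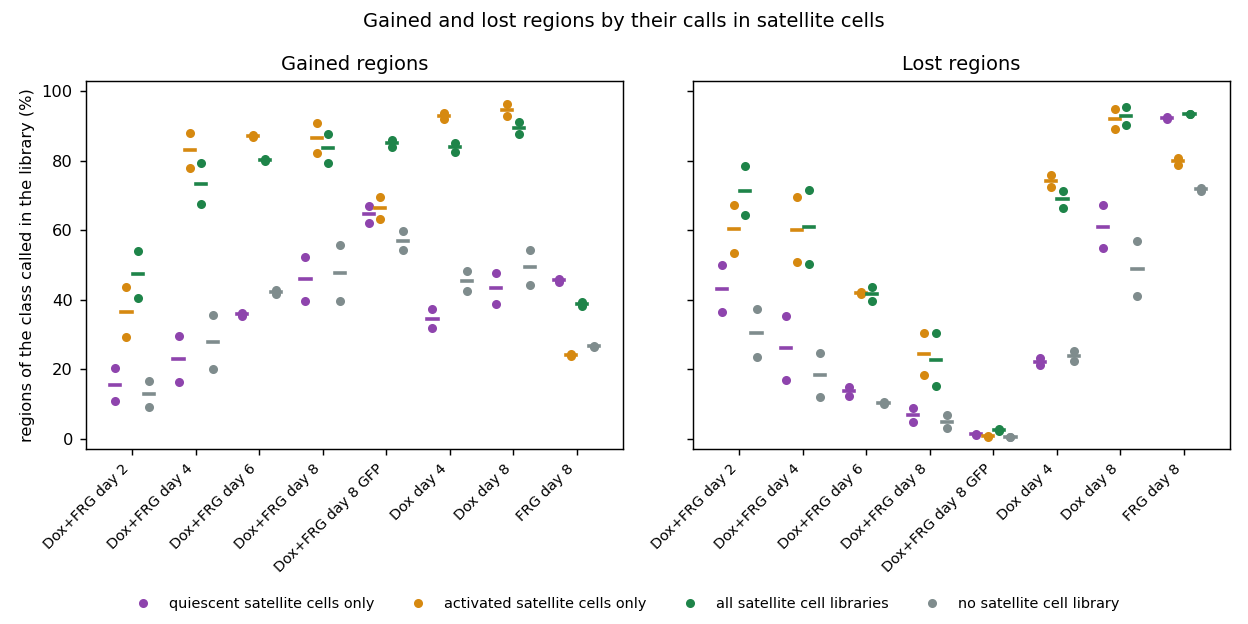
Share of gained (left) and lost (right) regions called per library, in percent, for 4 classes of regions set by the satellite cell lists. Points are libraries and bars are group means (n = 2). Gained activated-only regions reached 83.0% by day 4, lost regions of all classes were nearly absent from day 8 GFP cells, and Dox and FRG cells kept most lost regions shared with all satellite cell libraries.

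Most lost regions that all satellite cell libraries share were called in both single treatments at day 8. The 704 lost regions called in all satellite cell libraries were called at 92.9% ± 3.82 in Dox and 93.5% ± 0.100 in FRG day 8 cells, and at 2.49% ± 0.502 in GFP and 22.8% ± 10.9 in unsorted Dox+FRG cells of day 8 (SD, n = 2 each). The 635 quiescent-only lost regions were called at 92.3% ± 0.445 in FRG and 61.1% ± 8.69 in Dox day 8 cells. Over all lost regions the day 8 means were 62.6% in Dox and 76.6% in FRG cells. Over kept regions they were 97.1% in Dox and 97.5% in FRG cells.

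Gained and lost regions each followed their own kind somewhat more often than its share of all regions considered. Among the 80327 regions called in both libraries of at least 1 of the 2 groups, the next region after a gained one was gained in 30.7% of cases, against 23.6% of all regions considered, and lost in 24.3%, against 28.5%. After a lost region the next was lost in 37.5% and gained in 20.0% of cases. Most often the next region was neither, in 45.1% of cases after a gained and 42.5% after a lost region. Of all regions considered 47.8% were neither. Unbroken runs of at least 3 held 24.6% of gained and 33.4% of lost regions. The median distance to the nearest kept region was 20.3 kb for gained and 24.9 kb for lost regions. To the nearest region of the same kind it was 24.3 kb for gained and 24.5 kb for lost regions.

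Runs were ranked by their number of regions and, among ties, the shorter span first. Of 2 gained runs with 11 members, the first ranked covered 278 kb on chromosome 17 (mm9, 65244892 to 65523385) and the other 457 kb on chromosome 18 (83370723 to 83827392). Unsorted Dox+FRG libraries called 1 and 1 of the regions in the chromosome 17 run at day 2, 5 and 3 at day 4, 5 and 4 at day 6, and 5 and 4 at day 8, while day 8 GFP libraries called 8 and 8. Dox day 8 libraries called 6 and 7, FRG libraries 2 and 1, activated satellite cells 3 and 4 and quiescent ones 3 and 2. More of its regions were called in GFP cells than in unsorted cells of the same day, but this was not so in every run. In the run on chromosome 1 (168943557 to 169118224, 10 regions) day 8 GFP libraries called 7 and 6 regions, against 8 and 6 in unsorted day 8 libraries. The other runs named, of 10 regions each, lay on chromosome 5 (92121281 to 92306250 and 142050270 to 142393224). In each of the runs on chromosomes 18, 1 and 5, Dox day 8 libraries called more regions (6 to 9) than FRG libraries (0 to 3).

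Lost runs had more regions. Of 2 with 17 members, the shorter covered 610 kb on chromosome 11 (55930035 to 56539935). Day 2 libraries called 8 and 6 of the regions on chromosome 11, unsorted day 8 libraries 3 and 3, day 8 GFP libraries 0 and 0, and satellite cells 0 in all 4 libraries. FRG libraries kept 13 and 13 of the 17, and Dox day 8 libraries 9 and 9. Over all lost regions FRG libraries called 77.1% and 76.1%, and Dox day 8 libraries 56.0% and 69.2%. Within the span of this run the FRG lists had 44 and 42 peaks, against 19 and 18 in the day 0 lists. The other run of 17 covered 1880 kb on chromosome 7 (100402729 to 102282886), and runs of 15 lay on chromosome 3 (31238013 to 32214870) and chromosome 7 (46971657 to 48158361 and 59593268 to 62894021). Day 8 GFP libraries called 0 regions in all 5 lost runs, and little more of all lost regions (0.807% and 0.650%). In the chromosome 3 run activated satellite cells called 8 and 7 of 15 regions and quiescent ones 1 and 0, and unsorted Dox+FRG day 8 cells 1 and 0. In the first chromosome 7 run of 15, both satellite cell states had peaks, 7 and 9 in activated and 6 and 5 in quiescent libraries.

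**Figure D4:**
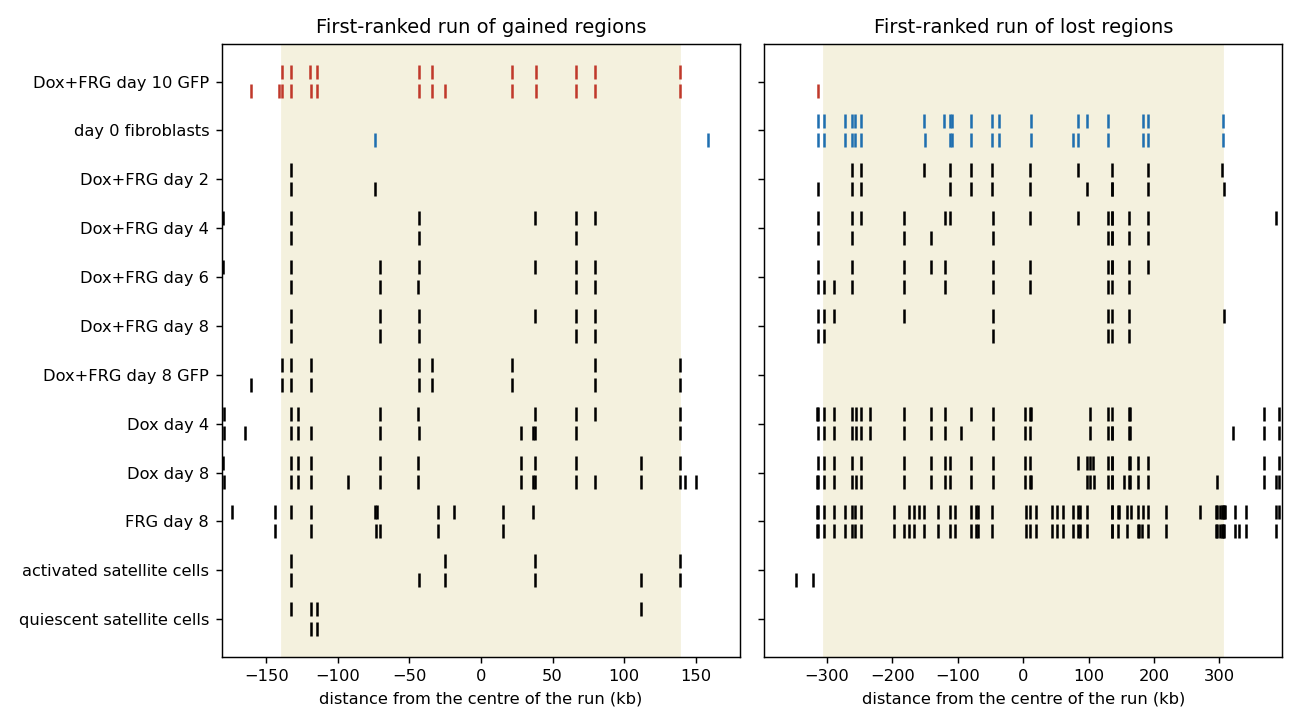
Peaks of each library (ticks, 2 rows per group with replicate 1 above) across the first-ranked gained run (left, 11 regions) and lost run (right, 17 regions), each the shorter of 2 runs with as many regions, by distance from the centre of the run in kb. Shading spans the run, and a peak in only 1 library of day 10 GFP or day 0 cells does not break it. Day 8 GFP libraries have peaks at 8 of the 11 gained regions and none inside the lost run, where FRG cells keep 13 of 17.

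Single regions showed the same courses. Among gained regions called in all satellite cell and both day 8 GFP libraries, a set of 2001, the widest lay on chromosome 3 (105516686 to 105525249, 8564 bp) and was called in 26 of 28 libraries, so day 0 alone lacked it. Its widest peaks in day 10 GFP cells were 184 and 172 bp, so calls of other libraries need not lie at the same site. The next, on chromosome 11 (66914543 to 66921100), had the same 26 libraries. The third, on chromosome 5 (35397113 to 35403401), was absent at day 2 and called in both libraries from day 4. Among the 7187 gained regions without a satellite cell call, the widest lay on chromosome 7 (150895212 to 150900783) and was called in both Dox libraries of each day and no FRG library. The fourth, also on chromosome 7 (149747206 to 149751100), had peaks of 1094 and 1150 bp in day 10 GFP cells and none in unsorted cells of days 4 and 6, though 1 day 2 and both day 8 libraries called it.

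Of the lost regions, 9038 (39.4%) were called in no Dox+FRG library of days 2 to 8, GFP cells included. The widest lay on chromosome 2 (173074846 to 173079931) and was called in both FRG and in all 4 Dox libraries. The fifth, on chromosome 10 (85105999 to 85109364), was called in both FRG libraries and in no Dox library. A smaller set of 630 (2.75%) was called in both unsorted libraries at all of days 2, 4, 6 and 8 and still lost at day 10. Neither this share nor the 39.4% was computed over all day 0 regions. The widest of these 630, on chromosome 17 (56161689 to 56168227), and the next, on chromosome 5 (26421593 to 26426735), were each called in 1 day 8 GFP library. Both activated and 1 quiescent satellite cell library called the widest, and no satellite cell library called the next. Those ranked after them lay on chromosome 17 from 52831264 to 52835867, chromosome 5 from 93359492 to 93363677 and chromosome 1 from 193446704 to 193450559. They were called in neither day 8 GFP library and in both activated satellite cell libraries, the last on chromosomes 5 and 1 also in 1 quiescent library. Widths of regions rest on the peaks of all 28 lists and can come from other libraries than those compared. Calls of different libraries in a wide region need not lie at the same site.

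Ranked instead by the narrower of the widest peaks in the 2 libraries that define them, a choice made after values were seen, the first gained region lay on chromosome 6 (8034766 to 8037090), with peaks of 2158 and 2040 bp in day 10 GFP cells. All libraries but those of day 0 called it. The third, on chromosome 10 (6275030 to 6277324), with peaks of 1994 and 2019 bp, was absent at day 2, called in 1 library at day 4 and in both from day 6, in all Dox libraries and in no FRG library. The first lost region, on chromosome 16 (13588339 to 13590438), had peaks of 1851 and 1864 bp in day 0 cells, was called in both day 2 libraries, 1 at days 4 and 6, and none at day 8 or in satellite cells, and stayed in all Dox and FRG libraries. The fifth lost region of this ranking, on chromosome 17 (64068808 to 64070545), had peaks of 1663 and 1738 bp and was already absent from both day 2 libraries, with a later call in 1 day 6 library.

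Some members were wholly private to the comparison. No such share was computed over kept or all regions of the 4 libraries, so the values are not read as few or many. None of the other 24 libraries called 494 gained (2.60%) and 1576 lost regions (6.87%). The median number of other libraries with a call was 11 for gained and 8 for lost regions. Both day 8 GFP libraries and no other of the 24 called 320 gained regions.

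The X chromosome departed from the autosomes in the balance of gain and loss. On X, 21.8% of the 2518 regions of the 4 libraries were gained and 16.6% lost. On the autosomes gained shares ran from 15.9% (chromosome 19) to 19.6% (chromosome 3) and lost shares from 19.4% (chromosome 7) to 24.9% (chromosome 15), so X alone had more gained than lost regions. The balance by chromosome was not computed with lists of equal length, where gain exceeded loss over all chromosomes. The share of all peaks lying on X was 2.52% and 2.57% in day 10 GFP cells and 2.12% and 2.17% in day 0 cells. It was 2.60% and 2.67% in day 8 GFP cells, against 2.37% and 2.37% in unsorted day 8 cells, and 2.50% to 2.68% in the satellite cell libraries. All GFP and satellite cell lists were above all lists of unsorted Dox+FRG cells, which ranged from 2.11% to 2.37%. The 4 Dox lists had 2.34% to 2.51% and the FRG lists 2.41% and 2.44%, so that 1 Dox day 8 list (2.51%) was above the lowest satellite cell list (2.50%). The sex of the embryos and mice is not given in the labels, and its part in these values was not tested.

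**Figure D5:**
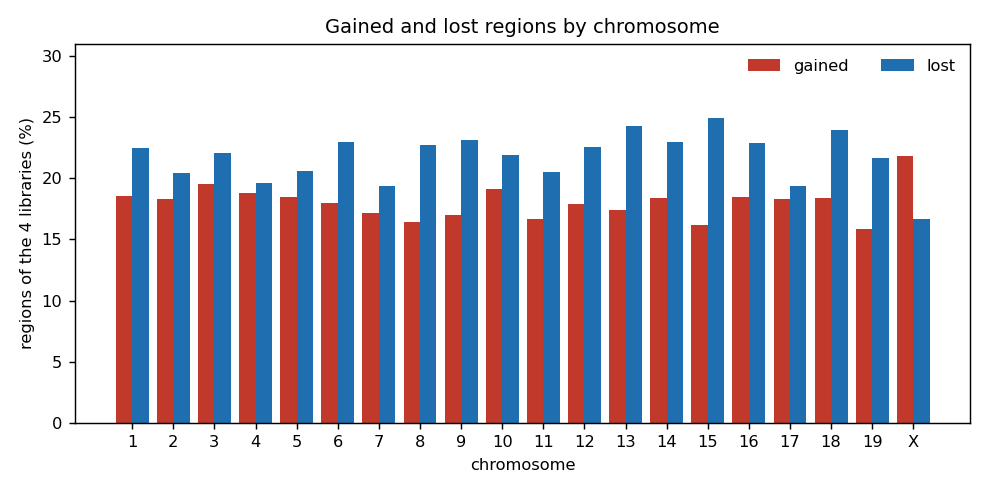
Gained (red) and lost (blue) regions per chromosome, in percent of the regions with a peak in at least 1 of the 4 libraries. X is the only chromosome where the gained share (21.8%) exceeds the lost share (16.6%).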

How the data were processed

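The deposited lists hold peak positions (other data, with no value per peak). BWA, HOMER and the mm9 build were named by the authors, per the submitters' processing notes. The sources used here give no tool versions, peak threshold or read filters, and sequencing depth is unknown. Positions are printed 1-based, with the deposited starts taken as 0-based.

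Overlapping peaks of 28 libraries were joined into regions, and any peak in a region counted as a call. Classes, shares, runs of neighbouring regions and exact permutation tests were computed with Python 3.11.15, numpy 2.4.6 and pandas 2.3.3, and the counting was tested on simulated lists. The p-values of 6 tests were adjusted by the Benjamini-Hochberg method. Libraries of a group were permuted as separate units.

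The members, classes and tests were chosen with earlier results of these data known. Named regions are 5 runs in each direction, by number of regions and then shorter span, and, for 4 classes, up to 5 of the widest regions. Gene lists were planned for an mm9 annotation and not used. The replicates of no group shared more than 29 identical peaks.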

Additional observations from a re-analysis of the deposited data

How the results depend on the processing

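Counts of gained and lost regions stayed within 1.5 times of 18987 and 22932 with an overlap of at least 50%, absence within 500 bp, autosomes alone, and regions merged from 4 or 27 libraries. With the 4 lists drawn to 61575 peaks they were 18836 gained and 18341 lost, so that the larger count changed sides. With extended peaks alone (those above the usual width in a list) they were 1611 and 2876. Leaving out 1 of the 4 libraries gave 20874 to 25125 gained and 24312 to 31018 lost regions, which rise by construction. The relations with day, which the rule favours, also passed with lists drawn to equal length, absence within 500 bp, regions merged from the 4 libraries, autosomes alone, shares divided by those of kept regions, and each library left out (r from 0.85 to 0.94 for gained and -0.93 to -0.86 for lost regions with a library left out). They failed without both day 2 libraries for gained (r = 0.73, exact permutation p = 0.111) and without both day 8 libraries for lost regions (r = -0.81, exact permutation p = 0.0889), alternatives chosen after the data were seen that leave 6 libraries. In fits with a replicate block, r was 0.93 (exact permutation p = 0.00694) and -0.96 (exact permutation p = 0.00347). With this block the tests of Dox+FRG against Dox could not give an exact permutation p below 0.0556, so their calls could not change. Deviations of same-numbered libraries correlated at -0.0496 to 0.0115 over the unsorted Dox+FRG days, so the numbers are not taken to pair the libraries.

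Dox+FRG minus Dox for gained regions turned to 13.9 points (exact permutation p = 0.0286) with lists drawn to 46017 peaks, a draw that takes more from the longer Dox lists, and that of lost regions shrank to -6.55 points (exact permutation p = 0.314). Kept regions were also called less in Dox than in Dox+FRG cells under this draw. With a library left out the difference of gained regions was -14.6 to -4.86 points, that of lost regions -36.1 to -23.8, and that of the gained to lost log2 ratio 0.84 to 1.67. The first passed without Dox+FRG day 8 replicate 1, the others without Dox+FRG day 4 replicate 1 (exact permutation p = 0.0286 each). The quiescent to activated log2 ratio ran from -0.35 to 0.14 and turned positive without Dox+FRG day 4 replicate 2. The equal-length values within a day were chosen after the data were seen. The cause of these changes was not tested. The lists hold no peak strength, so depth limits every share in a way that cannot be measured here.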
